A study of Mus musculus with 4 samples.

Results

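The muscle miRNAs described here are mmu-miR-1a-3p, mmu-miR-133a-3p, mmu-miR-133b-3p and mmu-miR-206-3p, and they were found on the arrays by these mature names among the spots that are not controls. All 4 were present, out of 1247 mouse miRNAs measured. They were read in RNA of the stromal vascular fraction (SVF), the cells of fat that remain when the floating adipocytes of digested tissue are taken away, from visceral white adipose tissue (visWAT). The mice were females of 8 weeks, given either PBS (vehicle) or 1 mg/kg of CL-316243 (CL), an agonist of the β3-adrenergic receptor that induces browning, for 3 days. The labels give the injections as subcutaneous and the paper gives them as intraperitoneal. The paper names the strain C57BL/6, which the label of vehicle 1 writes as C57/BL6 and the labels of the other arrays with other last digits. The labels name no transgene or deleted gene in either group. There were 2 one-colour Agilent arrays per group, each hybridised with RNA pooled from 5 mice, so that the spread between arrays is not one between single mice.

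miR-1 and miR-206 share a seed, the bases that pair with a target mRNA, and both promote the differentiation of muscle cells. miR-133a and miR-133b share another seed and are made from the same primary transcripts as miR-1 and miR-206, under the control of the muscle factors MyoD, MEF2 and SRF. miR-1 and miR-133a are abundant in both heart and skeletal muscle, whereas miR-206 and miR-133b belong mainly to skeletal muscle. In fat, miR-133 is known as a repressor of Prdm16, the factor that sets brown and beige adipocyte identity, which makes its level in fat precursors a question of its own during browning. None of these roles was measured here.

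The mature sequences of mmu-miR-206-3p and mmu-miR-133b-3p, from RefSeq (GRCm38.p6), are shown to set the members of the 2 families apart, with the seed, bases 2 to 8 counted from the 5′ end, in capitals. Both read from the + strand of chromosome 1.
mmu-miR-206-3p (chr1:20679055-20679076): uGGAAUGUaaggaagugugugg
mmu-miR-133b-3p (chr1:20682834-20682855): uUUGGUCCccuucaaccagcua

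The gene Mir206 spans positions 20679010 to 20679082 of chromosome 1 and Mir133b positions 20682769 to 20682887, with 3686 bases between them. Both lie within the long non-coding RNA gene Lincmd1 (20669882 to 20682958). miR-1a-3p and miR-133a-3p each come from a pair of genes. Of these, Mir1a-1 (180389048 to 180389124) and Mir133a-2 (180398379 to 180398482) lie together on chromosome 2 within the long non-coding gene Mir1a-1hg (180385604 to 180401802). Each miRNA was read by 2 probes of different length, with 20 spots each. The longer probes of the chromosome 1 pair are shown since they decide which bases the array reads.
Probe of mmu-miR-206-3p: ccacacacttccttac
Probe of mmu-miR-133b-3p: Tagctggttgaaggggacc
They complement bases 7 to 22 of miR-206-3p and bases 4 to 22 of miR-133b-3p. The capital letter marks the first base of the miR-133b-3p probe, which is the 1 base by which it differs from the longer probe of miR-133a-3p over the 18 bases that both hold. Signals of miR-133a-3p and miR-133b-3p can thus share RNA, and what part of each comes from the other cannot be told apart. The longer probes of miR-1a-3p and miR-206-3p differed at 4 of 16 bases.

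Each array held 52044 spots, of which 49880 were miRNA spots and 1000 negative controls. The scanner software detected between 386 and 431 miRNAs per array. All arrays lay on 1 slide, with the vehicle arrays in one row and the CL arrays in the other, so that treatment and row cannot be told apart. Replicates 1 shared one column of the slide and replicates 2 another. Mean negative controls followed the column, at 37.1 and 38.6 for vehicle 1 and CL 1 and at 31.7 and 32.8 for vehicle 2 and CL 2. No source says that the pools of one number belong together, and p-values measure only the spread between these arrays.

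All 4 muscle miRNAs were detected on all 4 arrays, with vehicle as with CL. On every array 20 of the 20 spots of the longer probe were well above background, and 0 spots were saturated. The linear spot intensities below are those of the longer probe, as medians over its 20 spots. For miR-133a-3p they were 160 (vehicle 1), 86.7 (vehicle 2), 134 (CL 1) and 140 (CL 2). These are 4.32, 2.73, 3.47 and 4.27 times the mean negative control of the same array. Vehicle 2 stood alone, since its highest miR-133a-3p spot (100) was below the lowest spot of CL 1 (116), of CL 2 (132) and of vehicle 1 (141). For miR-133b-3p the medians were 287 (vehicle 1), 148 (vehicle 2), 233 (CL 1) and 254 (CL 2). Its highest spot on vehicle 2 (162) was again below the lowest spot on any other array (219, on CL 1).

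For miR-1a-3p, the miRNA that heart and skeletal muscle share, the median spot intensity was 439 (vehicle 1), 156 (vehicle 2), 289 (CL 1) and 405 (CL 2). These are 11.8, 4.91, 7.49 and 12.3 times the negative controls. Its spots on vehicle 2 reached 174 and those on CL 1 began at 269, and CL 1 in turn lay below CL 2 and vehicle 1. For miR-206-3p, the skeletal muscle member of the same seed family, the medians were 99.0 (vehicle 1), 57.5 (vehicle 2), 73.0 (CL 1) and 82.3 (CL 2), or 2.67, 1.81, 1.89 and 2.51 times the negative controls. Here the spots of vehicle 2 (up to 70.1) overlapped with those of CL 1 (from 60.8) but not with those of CL 2 (from 73.2). Spots of one array repeat 1 hybridisation, so these ranges describe the array and not the mice.

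**Figure D1:**
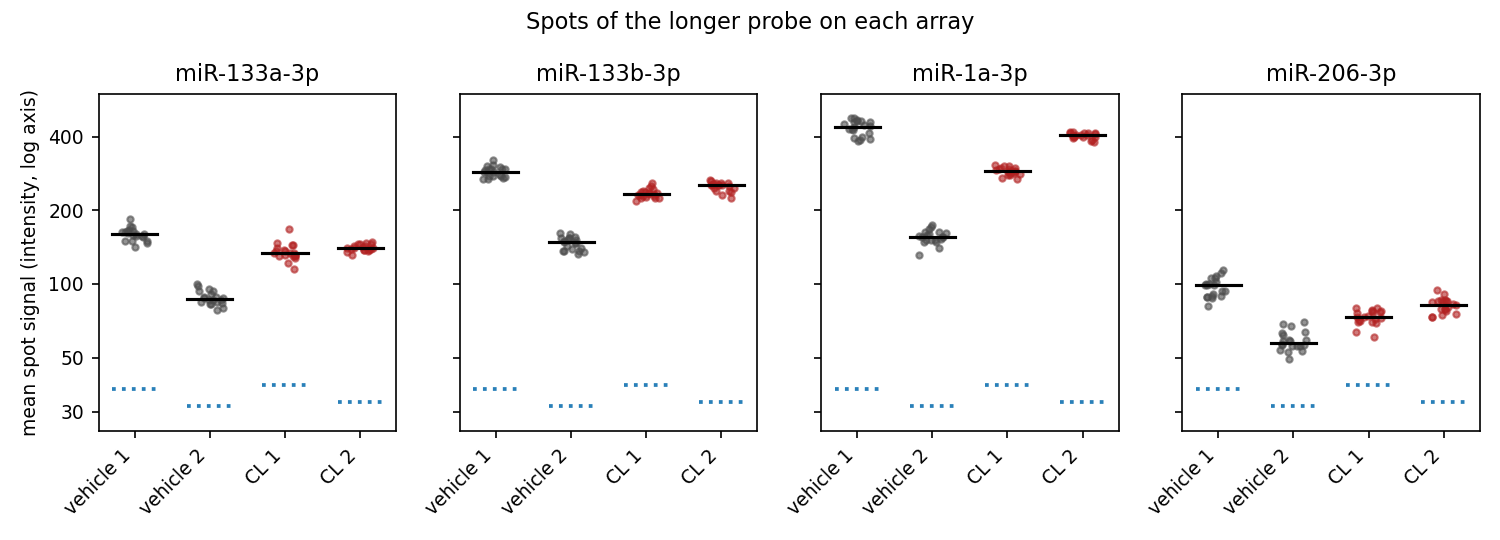
Mean spot intensity (log axis) of the longer probe of each muscle miRNA on each array. Points are the 20 spots, black bars their median and dotted bars the mean of the negative control spots, and vehicle 2 has the lowest median in all 4 panels (for example 86.7 for miR-133a-3p and 156 for miR-1a-3p).

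The shorter probes were dimmer and followed the same order at their lowest point. For miR-133a-3p the shorter probe read 60.0, 42.7, 58.1 and 51.5 in this order of arrays (vehicle 1, vehicle 2, CL 1, CL 2), with 19, 3, 17 and 15 of 20 spots well above background. For miR-1a-3p it read 84.8, 44.0, 65.7 and 73.5, with 2 of 20 such spots on vehicle 2 and 20 of 20 on each other array. For miR-133b-3p and miR-206-3p between 15 and 20 spots of the shorter probe were well above background on every array. In all 4 muscle miRNAs the shorter probe was also lowest on vehicle 2.

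Whether CL changed the muscle miRNAs was asked on log2 signals summarised over all spots of a miRNA. No change passed the test for any of the 4. The log2 signal of miR-133a-3p was 6.15 (vehicle 1), 5.47 (vehicle 2), 6.14 (CL 1) and 6.10 (CL 2). The CL arrays were nearly alike and both lay between the vehicle arrays, so the groups overlapped. CL minus vehicle was 0.31 (SE 0.25, 95% interval −0.37 to 0.99), with means of 6.12 ± 0.028 and 5.81 ± 0.48 (SD, n = 2 each) and an adjusted p of 0.409 by limma. For miR-133b-3p the values were 6.91, 6.17, 6.86 and 6.89 in the same order of arrays. Its difference was 0.34 (SE 0.27, 95% interval −0.39 to 1.08, adjusted p = 0.406 by limma). On a linear scale the intervals allow anything between 0.775-fold and 1.99-fold for miR-133a-3p and between 0.761-fold and 2.11-fold for miR-133b-3p.

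The log2 signal of miR-1a-3p was 7.26 (vehicle 1), 5.93 (vehicle 2), 6.94 (CL 1) and 7.25 (CL 2). Vehicle 1 and CL 2 were nearly equal, CL 1 was somewhat lower and vehicle 2 was far below. CL minus vehicle was 0.50 (SE 0.47, 95% interval −0.76 to 1.76, adjusted p = 0.471 by limma), with means of 7.09 ± 0.22 for CL and 6.59 ± 0.94 for vehicle (SD, n = 2 each). For miR-206-3p the values were 5.90, 5.27, 5.61 and 5.77, with CL 1 and CL 2 again between the vehicle arrays. Its difference was the smallest of the 4, at 0.10 (SE 0.25, 95% interval −0.56 to 0.76, adjusted p = 0.784 by limma). The intervals reach from 0.589-fold to 3.39-fold for miR-1a-3p and from 0.681-fold to 1.69-fold for miR-206-3p, so a fall as well as a rise remained within them.

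Among all 425 tested miRNAs, limma called 0 at an adjusted p under 0.05 (0%), 148 at an unadjusted p under 0.05 (34.8%), and 310 had CL arrays that did not overlap with the vehicle arrays (72.9%). The methods' t-test also called 0 after adjustment, and 52 without it. SAM called 60 without adjustment, and with 2 against 2 arrays its adjusted p cannot fall under 0.05. Of the 4 muscle miRNAs, 0 passed the adjusted threshold, 0 passed the unadjusted one and 0 had groups that did not overlap. The exact two-sided permutation test gave p = 1 for each of them, where 2 against 2 arrays cannot give less than 0.333. In bulk RNA, fewer cells of a type and less RNA per cell cannot be told apart, so these levels say nothing of which cells held the muscle miRNAs.

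The difference between the vehicle arrays exceeded the difference between the groups for each muscle miRNA, as it did for 39.3% of all tested miRNAs. Vehicle 1 minus vehicle 2 was 0.68 for miR-133a-3p, 0.74 for miR-133b-3p, 1.32 for miR-1a-3p and 0.63 for miR-206-3p on the log2 scale. Of the 425 tested miRNAs, 97.9% had a vehicle difference no larger than that of miR-1a-3p, and 87.3% one no larger than that of miR-206-3p. Over all tested miRNAs the median size of the vehicle difference was 0.27, that of the difference between the CL arrays 0.10 and that of the change between groups 0.34. CL 2 minus CL 1 was −0.040 for miR-133a-3p, 0.029 for miR-133b-3p, 0.31 for miR-1a-3p and 0.16 for miR-206-3p. In all 4 members, vehicle 1 was highest, vehicle 2 lowest and both CL arrays lay between them. This order was seen in 11 of the 425 tested miRNAs (2.59%), the 4 members included. Vehicle 2 was lowest in 160 of the 425 (37.6%). The order was singled out after the values were seen, and it held for all 4 members in 6 of 12 ways of computing the values, since vehicle 1 was not always the highest array.

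**Figure D2:**
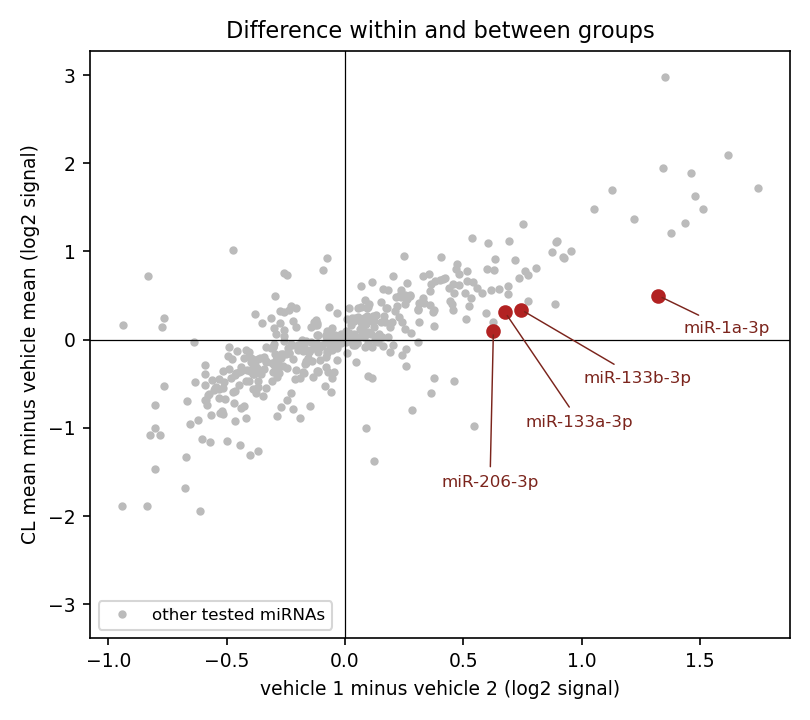
Each point is 1 of the 425 tested miRNAs, with vehicle 1 minus vehicle 2 (log2 signal) on the x axis and the CL mean minus the vehicle mean (log2 signal) on the y axis. The muscle miRNAs (red) lie to the right, between 0.63 and 1.32, with some other miRNAs further right. Change between groups of the muscle miRNAs is 0.10 to 0.50.

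Read within a column of the slide, CL minus vehicle was negative for replicate 1, in part barely so, and positive for replicate 2. Since both CL arrays lay between the vehicle arrays, each CL array gave the same sign against the same vehicle array. The sign thus followed the vehicle array used and was not particular to the column. In the column of replicate 1, CL minus vehicle was −0.0051 for miR-133a-3p, −0.046 for miR-133b-3p, −0.32 for miR-1a-3p and −0.29 for miR-206-3p. In the column of replicate 2 it was 0.63, 0.73, 1.32 and 0.49 in the same order. Such a turn, lower with CL in the first column and higher in the second, was found in 33 of the 425 tested miRNAs (7.76%), the members included. With 1 array per group in a column, neither difference has a test. With the column as a block, the limma adjusted p was 0.333 for miR-133a-3p, 0.338 for miR-133b-3p, 0.402 for miR-1a-3p and 0.810 for miR-206-3p, beside 40 of 425 miRNAs called (9.41%).

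**Figure D3:**
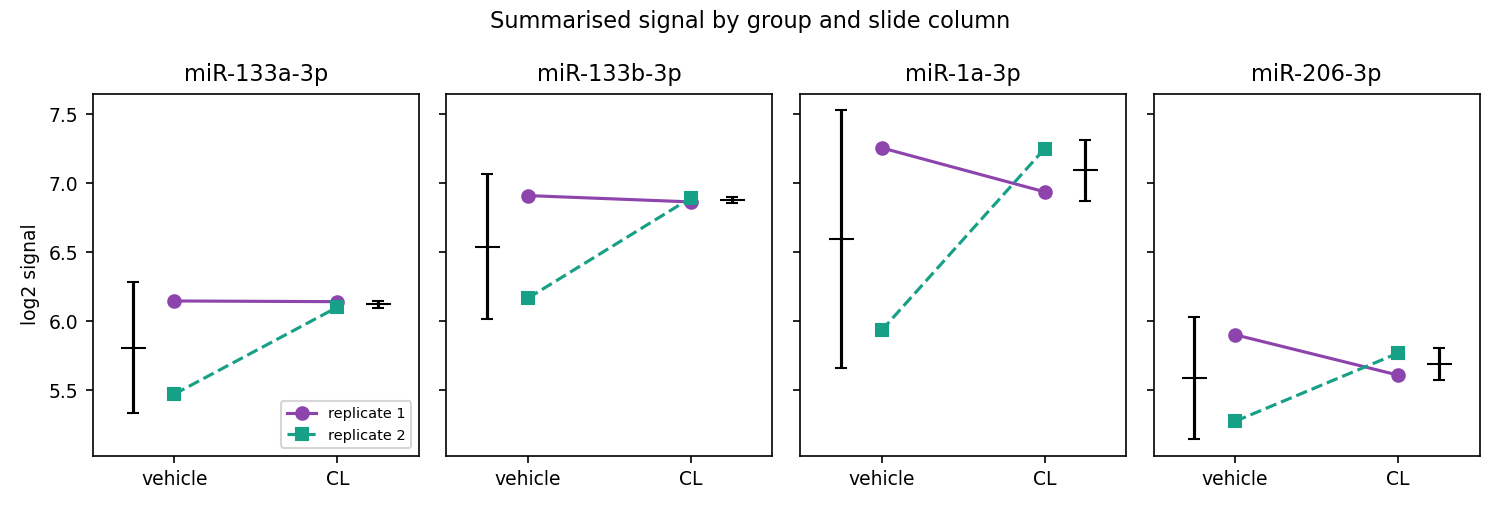
Log2 signal of each muscle miRNA by group, with lines joining the arrays of the same slide column (replicate 1 solid, replicate 2 dashed) and black marks for the mean and SD of each group (n = 2). The solid lines fall slightly or clearly (−0.0051 to −0.32) and the dashed lines rise (0.49 to 1.32).

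The vehicle array that was left in decided the sign. Without vehicle 1, CL minus vehicle was 0.65 for miR-133a-3p (limma adjusted p = 0.0116), 0.71 for miR-133b-3p (0.0106), 1.16 for miR-1a-3p (0.0164) and 0.41 for miR-206-3p (0.0527). In this fit 230 of all 425 miRNAs (54.1%) passed the adjusted threshold, so 3 of 4 muscle miRNAs is a share to be read against that background. Without vehicle 2 the differences were −0.025, −0.031, −0.16 and −0.21 in the same order, and none of the 4 passed (limma adjusted p = 0.839, 0.803, 0.540 and 0.260). The lone vehicle array is assumed in both fits to vary like the CL arrays. Without CL 1 or CL 2 the members stayed positive and none passed.

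**Figure D4:**
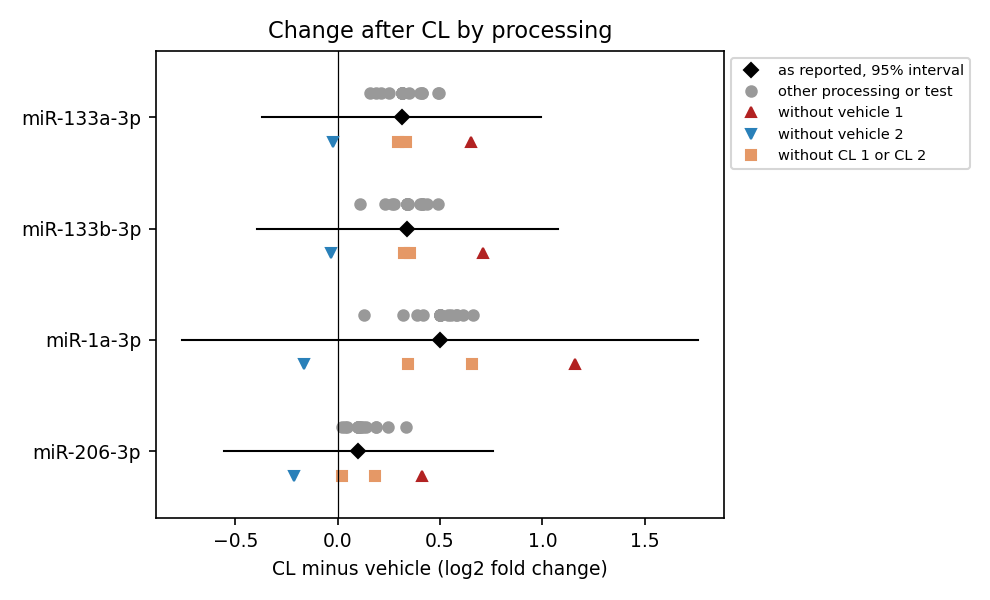
CL minus vehicle (log2 fold change) of each muscle miRNA as reported, with its 95% interval (diamond and line), under 17 other processing choices or tests (grey) and with 1 array left out (coloured). Grey points run from 0.02 to 0.66, all above 0, and the values without vehicle 2 are the negative ones. Some grey points repeat a value, since a change of filter, test or block alone keeps the fold change.

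The members were compared with each other by their course over the arrays, as the mean absolute difference between log2 signals that were each centred on their own mean. miR-133a-3p and miR-133b-3p differed by 0.034 over the 4 arrays, where the median distance of miR-133a-3p to all other tested miRNAs was 0.31. Their probes differ by 1 base, as shown above. miR-206-3p lay 0.11 from miR-133a-3p and 0.12 from miR-133b-3p, its neighbour on chromosome 1. miR-1a-3p lay 0.22 from miR-133b-3p, 0.25 from miR-133a-3p, its neighbour on chromosome 2, and 0.27 from miR-206-3p. Its median distance to all others was 0.49. Levels of different probes were not ranked against each other.

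By the same measure, the tested miRNAs most like miR-133a-3p were miR-133b-3p (0.034), miR-15a-5p (0.034) and miR-19b-3p (0.055). Those most like miR-133b-3p were miR-133a-3p (0.034), miR-15a-5p (0.045) and miR-301a-3p (0.050). For miR-206-3p they were miR-27a-3p (0.050), miR-511-3p (0.087) and miR-140-5p (0.097), and for miR-1a-3p miR-24-2-5p (0.19), miR-29c-3p (0.21) and miR-377-3p (0.21). No other muscle miRNA stood among the 3 most like miR-1a-3p or miR-206-3p. With 4 arrays, such likeness is a description.

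Other miRNAs of the same hairpins or family were not detected. On the array, miR-1a-1-5p, miR-1a-2-5p, miR-1b-3p, miR-1b-5p, miR-133a-5p, miR-133b-5p and miR-206-5p, 7 in all, were each detected on 0 of 4 arrays. Their log2 signals ran from 3.71 to 4.29 and none was tested. Of other miRNAs of striated muscle, miR-208a-3p, miR-208b-3p, miR-208b-5p, miR-499-3p, miR-499-5p and miR-486-3p were detected on 0 arrays as well. miR-208 and miR-499 are encoded within myosin heavy chain genes. miR-208a-5p was detected on CL 1 only, with log2 signals of 4.44 and 4.49 with vehicle and 4.74 and 4.67 with CL, and was not tested. Of the muscle names read, the 4 members were those detected on more than 1 array. Of the miRNAs other than miR-1a-3p that share the seed of miR-206-3p, miR-6349 was detected on 3 arrays and miR-6382 on 0. The log2 signals of miR-6349 were 4.73 and 4.81 with vehicle and 4.39 and 4.52 with CL.

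Since miR-133 is known from brown fat, 14 other miRNAs that regulate brown or beige adipocytes were read beside it. All 14 were tested and 0 passed the adjusted threshold. One of them, miR-455-5p, was not detected on vehicle 2 and entered the test only through its detection on both CL arrays. Its place among those higher with CL is thus not independent of that filter. At an unadjusted p under 0.05, 5 were higher with CL (miR-196a-5p, miR-455-3p, miR-455-5p, miR-34a-5p and miR-106b-5p), 1 was lower (miR-30c-5p) and 8 were not called, against 79 higher and 69 lower of all 425. Their median difference was 0.14, against −0.0079 over all tested miRNAs. miR-196a-5p, which promotes beige adipocytes through repression of Hoxc8, had the largest difference, 0.80 (limma adjusted p = 0.103), from 8.26 and 7.79 on the vehicle arrays to 8.77 and 8.89 on the CL arrays. miR-27a-3p, a repressor of adipogenesis, differed by 0.20 (limma adjusted p = 0.579), with 11.14, 10.52, 10.98 and 11.09 on vehicle 1, vehicle 2, CL 1 and CL 2. Vehicle 2 was the lowest array for 6 of the 14, miR-27a-3p among them, beside 37.6% of all tested miRNAs. miR-30c-5p differed by −0.43 (limma adjusted p = 0.121), with no overlap between groups, as in 72.9% of all tested miRNAs.

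Markers of other cells that the SVF can hold were read beside the muscle miRNAs. Summed linear signal of the 4 muscle miRNAs was 403 (vehicle 1), 216 (vehicle 2), 358 (CL 1) and 394 (CL 2). The 4 fibroblast miRNAs (miR-199a-3p, miR-199a-5p, miR-199b-5p and miR-214-3p) were lowest on vehicle 2 in 4 of 4 and summed to 3402, 2013, 6157 and 6288 in the same order. Their groups did not overlap, higher with CL (median difference 1.13), and none passed the adjusted threshold. Over all tested miRNAs, vehicle 2 was lowest in 37.6% and groups did not overlap in 72.9%. Vehicle 2 was lowest for 0 of 2 endothelial and 1 of 3 red cell miRNAs. The 4 leukocyte miRNAs summed to 2292, 1719, 3398 and 3308, and 3 of 4 were lowest on vehicle 2, but they did not move together. CL minus vehicle was 2.09 for miR-142-3p and 1.94 for miR-142-5p (limma adjusted p = 0.103 for both), 0.086 for miR-223-3p (0.641) and −0.89 for miR-150-5p (0.0909). Of the smooth muscle list, the 2 tested miRNAs, miR-143-3p and miR-145a-5p, were in neither case lowest on vehicle 2, and they summed to 633 and 534 with vehicle and 392 and 425 with CL. Their differences were −0.43 for miR-143-3p (limma adjusted p = 0.158) and −0.75 for miR-145a-5p (limma adjusted p = 0.0909). miR-143-5p, detected on vehicle 1 and CL 2 and not tested, was lowest on vehicle 2, with log2 signals of 4.59, 4.32, 4.43 and 4.57. The groups did not overlap for 2 of 2 endothelial miRNAs, lower with CL (median difference −1.09), or for 3 of 3 red cell miRNAs, higher with CL (median 0.92), beside 72.9% of all tested miRNAs, and none of these 5 passed the adjusted threshold. The fibroblast, leukocyte, endothelial and red cell lists were detected in full on all arrays. Of 3 epithelial miRNAs, 2 were detected on no array. The part of these cells in the muscle miRNA values was not tested.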

How the data were processed

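RNA of visWAT SVF was measured on 4 one-colour miRNA arrays, 2 vehicle and 2 CL, grouped by their labels. The authors deposited scanner files of Feature Extraction with the linear intensity of each spot, and a table of log2 values that they describe as quantile-normalized, in which undetected miRNAs sit at the lowest value. The scanner files' detection call was used per array. From the intensities, limma 3.58.1 in R 4.3.3 corrected the mean spot signal with normexp (all spots, no local background), control and outlier spots were left out, arrays were quantile-normalized and the spots of a miRNA were summarised by median polish as log2 signals. The test (lmFit, then eBayes, two-sided) took in the 425 miRNAs that had a detection call on each array of either group, and p-values were adjusted by Benjamini-Hochberg over all of them. The number of arrays limits the precision. Arrays with the same replicate number deviated from their group means with r = 0.12 across miRNAs. The alternatives changed the background, normalization, summary, filter, test and block, or left out 1 array. Named are the members, the listed muscle miRNAs, examples of the other lists (the 2 brightest and the largest change) and the 3 miRNAs most like each member. Those called at the unadjusted p in the brown and beige list, and the fibroblast, leukocyte and detected smooth muscle miRNAs, are named beside their counts. The members and lists were chosen with earlier results of these data known. miR-486-5p is not among the array names used here.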

Additional observations from a re-analysis of the deposited data

How the results depend on the processing

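Under 17 alternatives of processing or test, CL minus vehicle kept its sign and passed no adjusted threshold for any muscle miRNA: 0.16 to 0.50 for miR-133a-3p, 0.11 to 0.49 for miR-133b-3p, 0.13 to 0.66 for miR-1a-3p and 0.02 to 0.34 for miR-206-3p, with adjusted p from 0.261 to 0.966. Alternatives that changed only the filter, test or block kept the fold change by construction. The sign could thus turn only in the other ways of computing the values. SAM also cannot reach an adjusted p under 0.05 with 2 against 2 arrays. The lowest values of miR-1a-3p (0.13), miR-133a-3p (0.16) and miR-133b-3p (0.11) came with the trend on probe sequence removed. Leaving out 1 array gave −0.025 to 0.65 for miR-133a-3p, −0.031 to 0.71 for miR-133b-3p, −0.16 to 1.16 for miR-1a-3p and −0.21 to 0.41 for miR-206-3p. The negative ends came without vehicle 2 and the high ends without vehicle 1, where miR-133a-3p, miR-133b-3p and miR-1a-3p passed. In all 12 ways of computing the values, vehicle 2 was the lowest array and the groups overlapped for all 4 muscle miRNAs, and vehicle 1 minus vehicle 2 ranged from 0.30 (miR-206-3p) to 1.73 (miR-1a-3p). Vehicle 1 was the highest array in 7 of the 12 for miR-1a-3p, in 9 for miR-133a-3p and miR-133b-3p and in 11 for miR-206-3p. CL 1 was below vehicle 1 in 12 of the 12 for miR-1a-3p and miR-206-3p and in 11 for miR-133a-3p and miR-133b-3p.

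The count of all tested miRNAs past the adjusted threshold, 0 as reported, was 64 without normalization, 44 with median centring, 27 with the scanner total, 7 with the deposited table and 51 with the probe trend removed. With the replicate number as a block it was 40, and 109 when median polish was also run to convergence, an alternative chosen after seeing the data. The block changed no call of a muscle miRNA. Leaving out 1 array gave 1 (without vehicle 2) to 230 (without vehicle 1), with 21 without CL 1 and 31 without CL 2. The unadjusted count, 148 as reported, was 91 with median centring, 60 with SAM, 52 with the methods' t-test and 61 (without CL 1) to 263 (without vehicle 1) with 1 array left out, and 77 without CL 2. The cause was not tested for any of these. The longer probe of miR-206-3p read at only 1.81 to 2.67 times the negative controls. Whether this limited how small a change could be seen was not tested.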
